A study of Mus musculus with 8 samples.

Results

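The 10 protein-coding genes described here are B4galt7, Cpsf1, Tapbp, Rgl2, Ncbp2, 0610012G03Rik, Supt7l, Slc4a1ap, Ighmbp2 and Mrpl21, out of 21887 protein-coding genes on the 21 main chromosomes. They were chosen by the fold enrichment of Mgea5 peaks at their ends in both replicates, and each was examined over the gene body and 5 kb on either side. Their Mgea5 values therefore describe the choice and are given without a test, whereas the peaks of Panx2 and Polr1c took no part in it. The cells were primary hippocampal neural progenitor cells of male C57BL/6 mice, with no treatment or genotype named, and chromatin bound to each protein was recovered by antibody and sequenced (ChIP-seq). The groups were Mgea5, Panx2 and Polr1c, with 2 replicate libraries each, and 2 libraries of input chromatin. The age of the mice was not given in the sources used here, and the labels do not say whether replicates came from separate cultures. The files were 6 peak lists on mm10, the inputs were not analysed here, and read depth was unknown. Mgea5 and Panx2 were listed as broad peaks and Polr1c as narrow peaks with a summit. Folds, widths and overlap counts are thus not directly comparable between Polr1c and the other proteins. Peak lists measure where a protein's chromatin was recovered and not which genes were expressed, so the labelled cell type could not be checked from its markers.

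Mgea5, whose gene is now called Oga, is the enzyme that removes the sugar O-GlcNAc from serine and threonine residues of nuclear and cytoplasmic proteins, reversing the work of Ogt. It is not known to read a DNA sequence, and its recovery with chromatin is usually thought of as passing through other proteins. Panx2 is a pannexin membrane channel protein, and Polr1c is a subunit that RNA polymerases I and III share. Many mammalian genes start head to head with a neighbour, so that one short stretch of DNA serves as the promoter of both.

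The 10 genes held 6 Mgea5 sites, since 8 of the genes lay in 4 pairs that shared a site. A site is the overlap of the highest Mgea5 peak of each replicate within 1000 bp of a gene end. Of the 6 sites, 5 covered a start that the RefSeq promoter table (GRCm38.p6, which has the coordinates of mm10) gives for a listed gene. Sites were taken at gene ends, so this count follows in part from the choice. The share among other Mgea5 regions was not counted. The table matched 8 of the 10 genes, with Cpsf1 and Ncbp2 unmatched. A promoter at each of these 5 sites is shown because the Mgea5 peaks of both replicates coincided there. Each runs from 250 bases before to 50 after the start, and capitals mark every match, on either strand, to the ETS core, the CCAAT box and the Sp1 box, whose letters are spelled out with their counts. The windows were chr13:55599646-55599945 for B4galt7 (plus strand), chr17:33929644-33929943 for Rgl2 (plus strand), chr16:31948456-31948755 for 0610012G03Rik (minus strand), chr5:31526713-31527012 for Supt7l (minus strand) and chr19:3282961-3283260 for Ighmbp2 (minus strand).
B4galt7: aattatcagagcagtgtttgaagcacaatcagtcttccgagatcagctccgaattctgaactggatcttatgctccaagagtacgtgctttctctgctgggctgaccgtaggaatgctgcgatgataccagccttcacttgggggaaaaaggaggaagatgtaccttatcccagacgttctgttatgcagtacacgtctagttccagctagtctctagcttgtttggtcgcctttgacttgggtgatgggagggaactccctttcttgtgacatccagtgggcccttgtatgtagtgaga
Rgl2: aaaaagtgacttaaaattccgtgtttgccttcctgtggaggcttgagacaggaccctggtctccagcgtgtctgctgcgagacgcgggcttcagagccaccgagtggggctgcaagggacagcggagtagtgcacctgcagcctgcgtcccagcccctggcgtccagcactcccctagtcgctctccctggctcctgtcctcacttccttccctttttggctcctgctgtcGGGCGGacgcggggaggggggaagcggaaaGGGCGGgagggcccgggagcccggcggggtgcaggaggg
0610012G03Rik: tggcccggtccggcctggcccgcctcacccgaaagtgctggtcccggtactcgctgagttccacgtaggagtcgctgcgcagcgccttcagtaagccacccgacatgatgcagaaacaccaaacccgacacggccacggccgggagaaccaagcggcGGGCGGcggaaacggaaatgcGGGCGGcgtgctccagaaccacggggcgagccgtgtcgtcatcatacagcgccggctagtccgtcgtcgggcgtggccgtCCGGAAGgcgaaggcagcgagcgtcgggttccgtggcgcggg
Supt7l: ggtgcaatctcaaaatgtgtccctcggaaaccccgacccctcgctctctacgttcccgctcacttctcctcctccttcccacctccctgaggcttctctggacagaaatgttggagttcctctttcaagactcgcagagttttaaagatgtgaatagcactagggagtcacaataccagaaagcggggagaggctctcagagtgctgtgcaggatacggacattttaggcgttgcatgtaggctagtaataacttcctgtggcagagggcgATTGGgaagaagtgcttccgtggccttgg
Ighmbp2: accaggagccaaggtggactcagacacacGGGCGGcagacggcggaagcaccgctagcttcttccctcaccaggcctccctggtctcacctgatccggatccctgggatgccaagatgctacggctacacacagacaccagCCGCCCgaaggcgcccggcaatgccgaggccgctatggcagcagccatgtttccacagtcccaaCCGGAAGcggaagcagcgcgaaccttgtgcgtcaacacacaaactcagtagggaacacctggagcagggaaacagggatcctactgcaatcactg
The windows of 0610012G03Rik and Supt7l also hold the low-coordinate ends of Ncbp2 and Slc4a1ap, 41 bp and 19 bp from the printed start, and that of Ighmbp2 holds the annotated start of Mrpl21. The windows of Rgl2, Supt7l and Ighmbp2 lie wholly inside their sites. That of B4galt7 begins before its site, which starts at 55599768. That of 0610012G03Rik extends past the high-coordinate end of its site, at 31948670.

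B4galt7 (chromosome 13, 55599896 to 55610443) carried the Mgea5 peak with the highest fold of the whole list in both replicates. It encodes the galactosyltransferase that adds the first galactose to the linker between a proteoglycan core protein and its glycosaminoglycan chain. The fold enrichment, the authors' ratio of ChIP to background pileup in a peak, was 5.08 in replicate 1 and 4.22 in replicate 2, with a −log10 q, where 2 corresponds to a q of 0.01 and larger is stronger, of 11.05 and 8.09. For comparison, the median fold of all listed Mgea5 peaks was 1.71 in each replicate. By p-value the B4galt7 peaks ranked 6th in replicate 1 and 4th in replicate 2. The peaks spanned 55598505 to 55600473 (1969 bp) and 55599768 to 55600205 (438 bp), the shorter lying wholly inside the longer. The start of B4galt7 lay inside both, 90 bp before the centre of the overlap. The nearest other gene, Tmed9, a membrane protein gene of vesicle transport, ended 2199 bp away. The wide replicate 1 peak came within 1000 bp of that end as well, while the highest peak there in replicate 2 had a fold of 1.73 and a −log10 q of 0.

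Cpsf1 (chromosome 15, 76595808 to 76607661) encodes a subunit of the complex that recognises the polyadenylation signal and cleaves pre-mRNA. Its site had folds of 4.43 and 3.24 in replicates 1 and 2, and a −log10 q of 9.50 and 8.53. By p-value these peaks ranked 7th of 536877 and 3rd of 521566, and by fold they ranked 2nd and 14th. The peaks spanned 76607155 to 76608235 and 76606560 to 76607639, so they were nearly equal in width (1081 and 1080 bp) but offset, and shared 485 bp. This shared stretch ended 22 bp inside the high-coordinate end of the gene. Cpsf1 also overlaps its neighbour Adck5 by a few bases, but at the opposite end, where the highest Mgea5 folds were 1.89 and 1.59.

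Tapbp and Rgl2 (chromosome 17, 33919478 to 33929290 and 33929514 to 33937687) lie in tandem on the plus strand, 224 bp apart. Tapbp encodes tapasin, which holds MHC class I molecules at the peptide transporter, and Rgl2 encodes an exchange factor for the GTPase Ral. Their shared site had folds of 3.40 and 3.97 in replicates 1 and 2, and a −log10 q of 6.53 and 8.61. The peaks spanned 33929097 to 33930673 and 33929008 to 33930057, and their 961 bp overlap held the end of Tapbp, the low-coordinate end of Rgl2 and the annotated start of Rgl2, which is 380 bp further in. The site was thus at the far end of Tapbp and the near end of Rgl2. At the start of Tapbp itself the highest folds were 2.12 and 1.62, each with a −log10 q of 0. Zbtb22 and the lncRNA Gm19412 have ends beside that start and shared those peaks.

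Ncbp2 and 0610012G03Rik (chromosome 16, 31948546 to 31958472 and 31947050 to 31948505) have ends 41 bp apart. Ncbp2 encodes the subunit of the nuclear cap-binding complex that contacts the cap of new RNA polymerase II transcripts. The site had folds of 4.37 and 3.04 in replicates 1 and 2, and a −log10 q of 9.62 and 5.50. Its peaks spanned 31947904 to 31948744 and 31948395 to 31948670, and at 276 bp the overlap was the narrowest of the 6. Both gene ends lay within 27 bp of its centre.

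Supt7l and Slc4a1ap (chromosome 5, 31514569 to 31526762 and 31526781 to 31561755) start head to head, with ends 19 bp apart. Supt7l encodes a subunit of the SAGA coactivator, a histone-modifying complex, and Slc4a1ap encodes kanadaptin. Folds were 3.64 and 3.58 in replicates 1 and 2, and the −log10 q was 6.81 and 6.98. The peaks spanned 31526615 to 31527876 and 31526093 to 31527345. Their 731 bp overlap held both ends and the annotated start of Slc4a1ap, 15 bp from the centre.

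Ighmbp2 and Mrpl21 (chromosome 19, 3259076 to 3283010 and 3282997 to 3292837) also start head to head, with ends 13 bp apart inside a short overlap of the genes. Ighmbp2 encodes a UPF1-like helicase whose mutation causes motor neuron loss in nmd mice, and Mrpl21 encodes a protein of the large subunit of the mitochondrial ribosome. Folds were 3.11 and 3.26 in replicates 1 and 2, and the −log10 q was 4.18 and 5.80. The peaks spanned 3282072 to 3283289 and 3282285 to 3283421. This was the widest overlap of the 6, at 1005 bp, and the one with the lowest mean fold. The peaks of this site ranked 41st and 13th by fold, and 56th and 16th by p-value, in replicates 1 and 2.

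**Figure D1:**
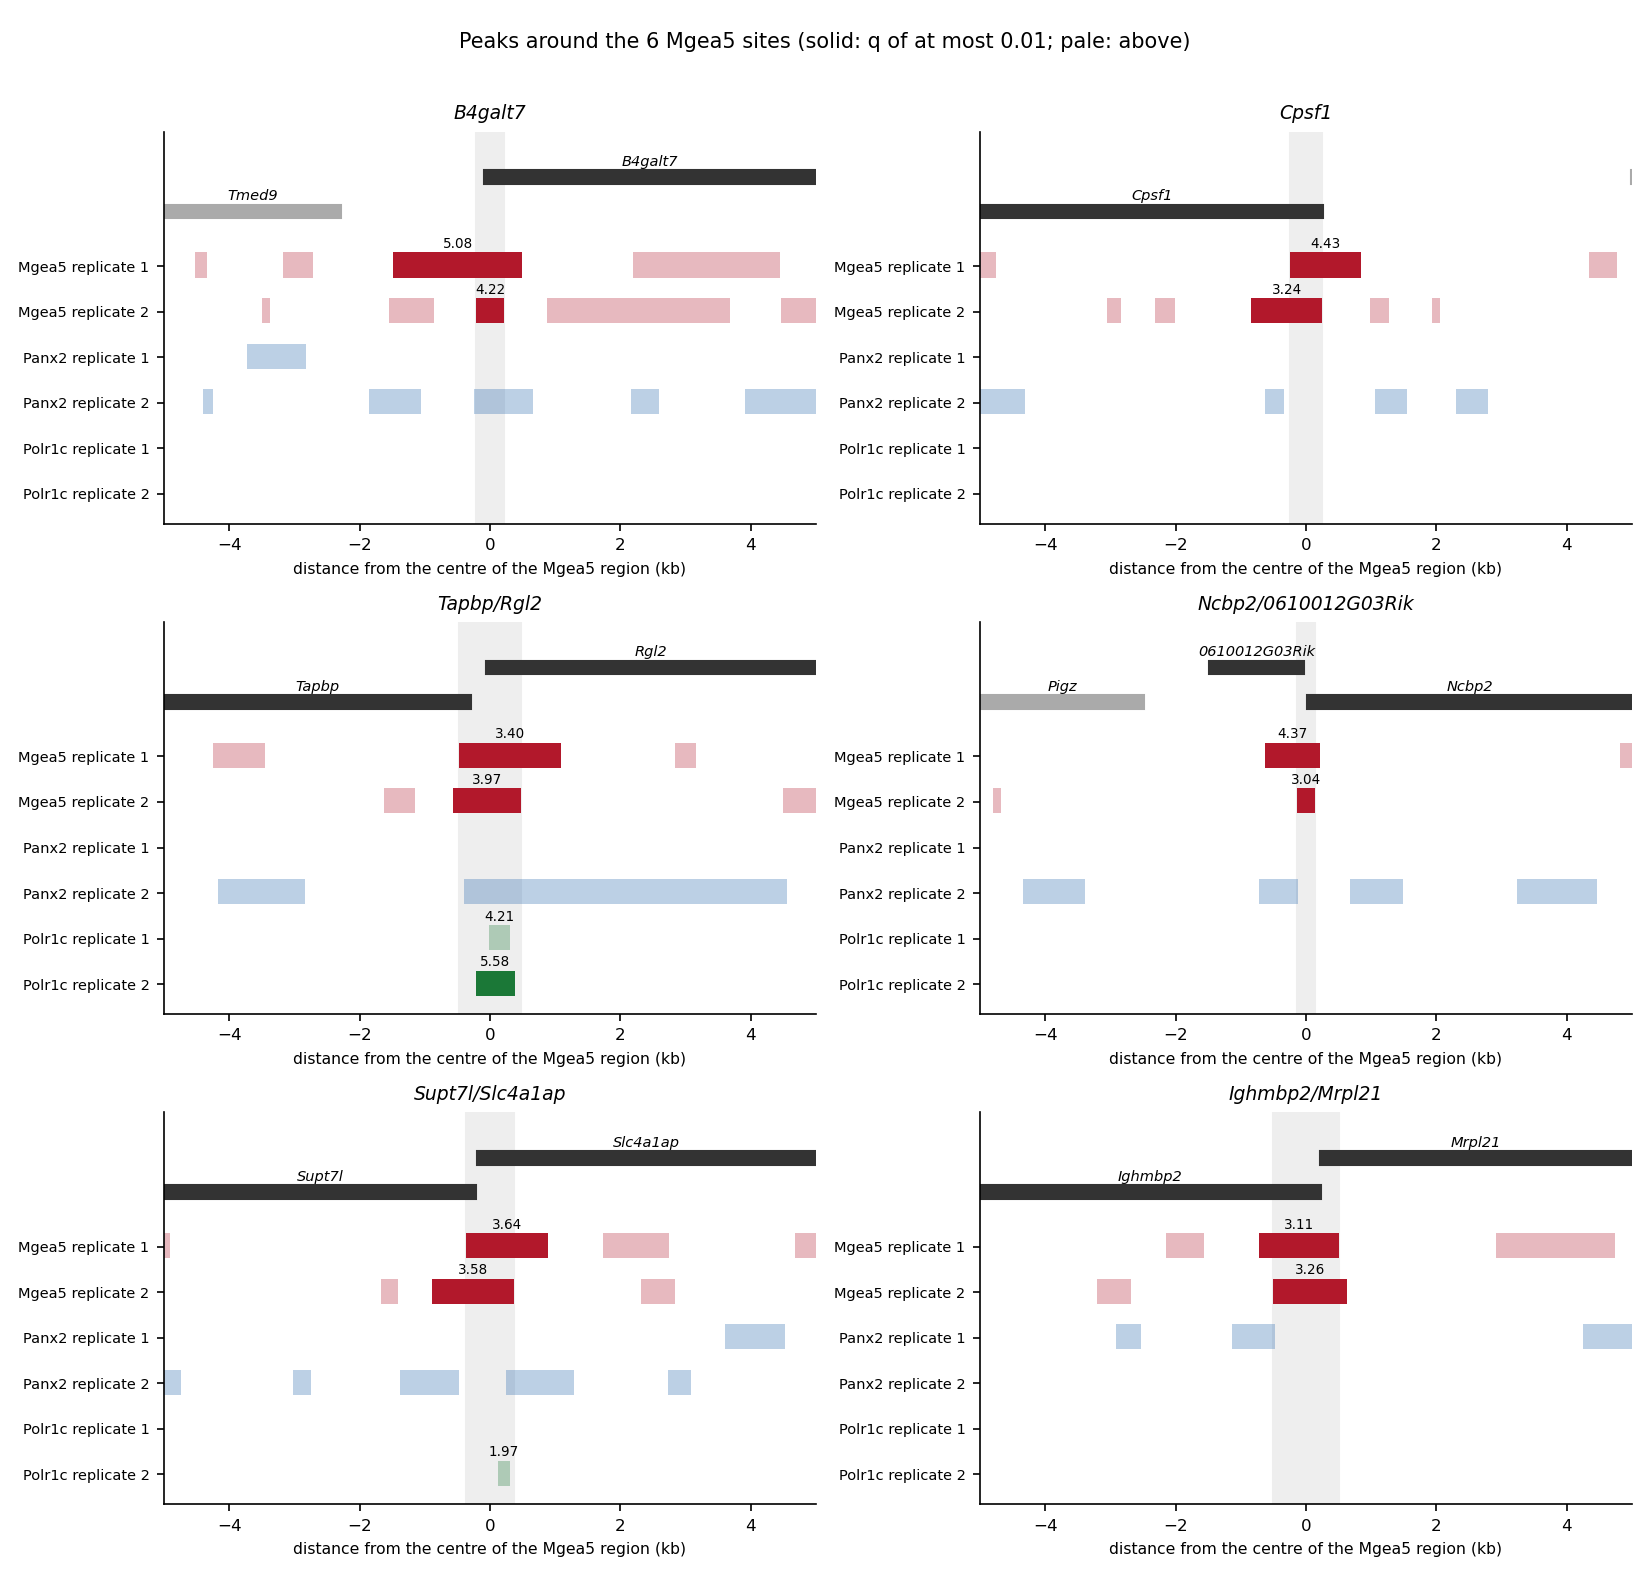
Peaks of the 6 lists (rows) within 5 kb of the centre of each Mgea5 region, with genes as dark bars (the 10 genes) or grey bars (neighbours) and the region in light grey. Numbers are folds of peaks with a q of at most 0.01 and of Polr1c peaks. The Mgea5 peaks of both replicates are solid at all 6 sites. Among the other proteins only the replicate 2 Polr1c peak at the Tapbp and Rgl2 site is solid.

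Each gene thus held 1 strong Mgea5 site among many weak peaks. Away from the site, the gene body and 5 kb flanks carried up to 18 further Mgea5 peaks, at Slc4a1ap in replicate 1, where they reached a fold of 1.92. The highest fold among such peaks was 2.26 in replicate 1, inside Supt7l, and 2.04 in replicate 2, inside Cpsf1. None had a −log10 q above 0.000337. Mgea5 peaks covered 14.2% to 45.1% of the bases of these windows in replicate 1 and 3.50% to 30.5% in replicate 2, so a weak peak near a gene end was common. Within 1000 bp of an end, all 10 genes had Mgea5 peaks in both replicates, where 64.3% of protein-coding genes did (81.2% in replicate 1 and 71.2% in replicate 2). In the gene body and 5 kb flanks the share was 89.7%. At a −log10 q of at least 2 in both replicates the 10 genes were among 55 genes, or 0.251% of protein-coding genes (0.388% in replicate 1 and 0.452% in replicate 2). All of these counts follow from how the genes were chosen.

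At the end away from the site, Mgea5 folds were low or no peak was listed. Replicate 2 listed none within 1000 bp of the other end of Rgl2, 0610012G03Rik, Supt7l, Ighmbp2 and Mrpl21, and folds of 1.56 to 1.81 at the other 5 genes. Replicate 1 listed none there for Ighmbp2. For 0610012G03Rik it listed the site itself (4.37), since this gene is 1456 bp long and the peak reached the windows of both ends. At the other 8 genes replicate 1 had folds of 1.74 to 2.12.

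**Figure D2:**
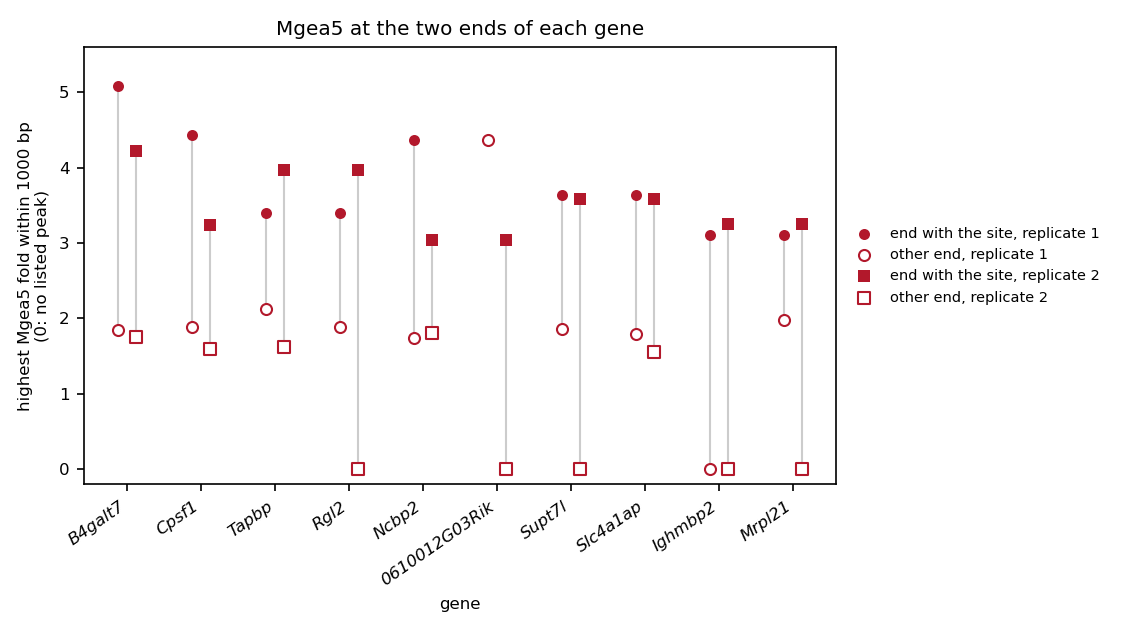
Highest Mgea5 fold within 1000 bp of the end that carries the site (filled) and of the other end (open) for each gene, in replicate 1 (circles) and replicate 2 (squares), with 0 where no peak was listed. The filled points lie between 3.04 and 5.08, and the open ones at or below 2.12 except 0610012G03Rik in replicate 1, where a single peak reaches both ends and the points coincide.

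By the geometric mean of the 2 replicate folds, the sites stood at 4.63 for B4galt7, 3.79 for Cpsf1, 3.67 for Tapbp and Rgl2, 3.64 for Ncbp2 and 0610012G03Rik, 3.61 for Supt7l and Slc4a1ap, and 3.18 for Ighmbp2 and Mrpl21. The order by replicate was not the same. Tapbp and Rgl2 ranked 17th among all Mgea5 peaks by fold in replicate 1 but 4th in replicate 2, and Ncbp2 ranked 4th in replicate 1 but 24th in replicate 2. The list does not hold every gene above its lowest member. Kmt2a, a histone H3 lysine methyltransferase gene (mean fold 4.28), Atg14, an autophagy gene (3.56), the proteasome gene Psmb7 (3.30), the F-box gene Fbxw8 (3.20) and the kinase gene Mapkapk5 (3.19) lay above Ighmbp2. Just below it were Dynll1, a dynein light chain gene (3.16), Lrrc47 (3.12) and the endosome gene Rbsn (3.05). The lowest sites of the list therefore differ little in fold from genes left out of it.

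**Figure D3:**
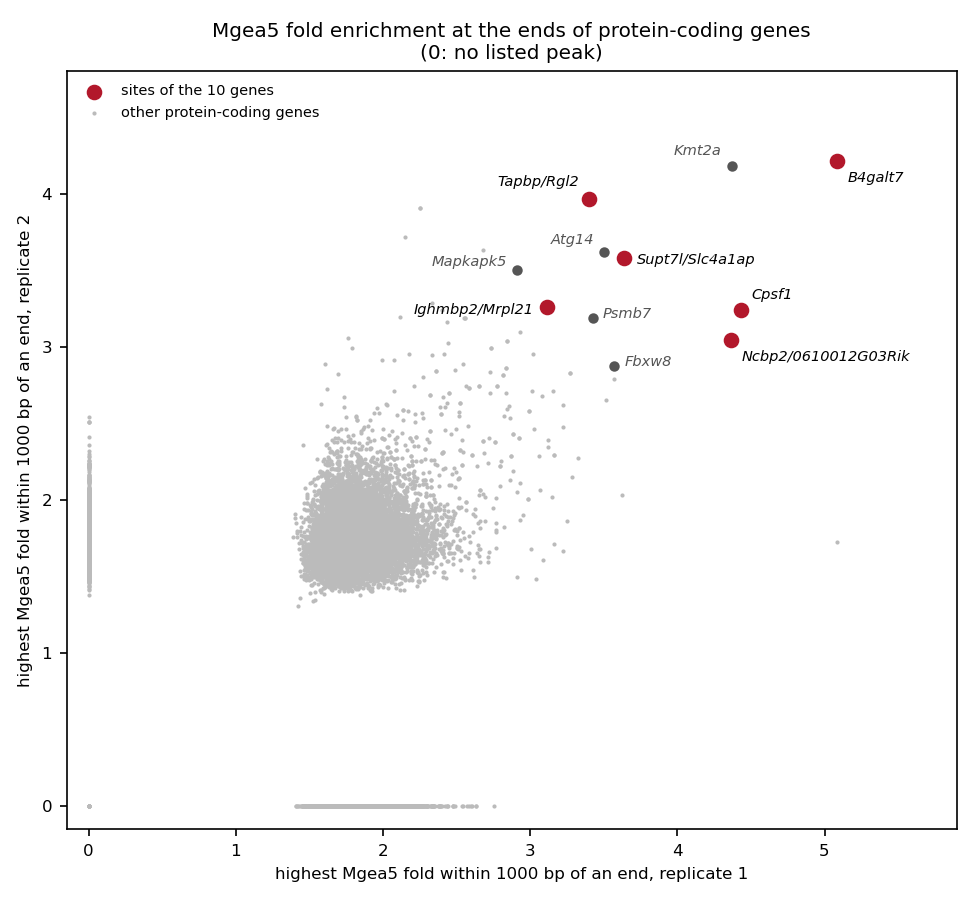
Highest Mgea5 fold within 1000 bp of an end, replicate 1 on the horizontal and replicate 2 on the vertical axis, for the 6 sites of the 10 genes (red) and all other protein-coding genes (grey), with 0 where no peak was listed. The 5 darker points are genes outside the list with a mean fold above that of Ighmbp2 and Mrpl21. The red points have folds of at least 3.11 in replicate 1 and at least 3.04 in replicate 2, apart from the bulk of genes, whose medians among genes with a peak were 1.78 and 1.73.

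Polr1c peaks of both replicates met the Mgea5 region at 1 of the 6 sites, the one shared by Tapbp and Rgl2. The fold there was 4.21 in replicate 1, with a −log10 q of 0.612, and 5.58 in replicate 2, with a −log10 q of 18.9. Those peaks ranked 184th of 826 and 165th of 35927 by fold. They spanned 33929566 to 33929890 and 33929366 to 33929954, both inside the Mgea5 region. Their summits lay 169 bp and 14 bp after the low-coordinate end of Rgl2, and 211 bp and 366 bp before its annotated start. Of the 408 tRNA genes in the RefSeq table, the usual targets of RNA polymerase III, the nearest to this site was 8053.9 kb away, and the nearest to any of the 6 sites was 293 kb away, from Ighmbp2 and Mrpl21.

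At the other sites Polr1c was weak or not listed. At the site of Supt7l and Slc4a1ap only replicate 2 had a peak, inside Slc4a1ap. It had a fold of 1.97 and a −log10 q of 0, near the bottom of the replicate 2 list (35677th of 35927 by fold). No Polr1c peak lay within 5 kb of the sites at B4galt7, Ncbp2 or Ighmbp2 in either replicate. At Cpsf1 the nearest was 4865 bp away, in replicate 2. Polr1c replicate 2 also had a peak 738 bp inside the far end of B4galt7 (fold 2.45, −log10 q 0), and 3 inside Slc4a1ap away from the site (folds of 2.80 to 3.36, −log10 q of at most 0.736). A further peak lay in the flank of Supt7l (fold 2.75) and another in that of Rgl2 (fold 2.20), neither within 1000 bp of the gene's end.

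Counted by gene ends, 2 of the 10 genes, Tapbp and Rgl2, had Polr1c peaks in both replicates, where 0.521% of protein-coding genes did. The same 2 were the only ones of the 10 with a peak in replicate 1 (0.594% of protein-coding genes). Both genes were counted for 1 and the same peak. In replicate 2 alone 5 of the 10 had a peak (17.5% of protein-coding genes), and at a −log10 q of at least 2 in replicate 2 Tapbp and Rgl2 remained, against 2.22% of protein-coding genes. At that q none of the 10 was called in replicate 1, against 0.384% of protein-coding genes, or in both replicates, against 0.334%. By site, 1 of the 6 overlapped Polr1c peaks of both replicates and 2 a peak of replicate 2, beside 11 (16.7%) and 31 (47%) of the 66 Mgea5 regions with a −log10 q of at least 2 in both replicates. With the same cut-off on the Polr1c peaks there were 0 of the 6 sites in both replicates and 1 in replicate 2, beside 15.2% and 40.9% of the 66 regions. No test was run on these small numbers, and the 6 sites are themselves among the 66 regions. Only 41 of the 66 lay within 1000 bp of a gene end, where all 6 sites lay, so the 66 are not a like set.

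Panx2 peaks at the 6 sites were weak and never in both replicates. Replicate 2 overlapped the Mgea5 region at B4galt7 (fold 2.15), Tapbp and Rgl2 (2.12), Ncbp2 and 0610012G03Rik (2.10) and Supt7l and Slc4a1ap (1.85). Replicate 1 did so only at Ighmbp2 and Mrpl21 (fold 1.89), where its peak met only the edge of the region. The replicate 2 peak at Ncbp2 and 0610012G03Rik also met only the edge, ending at 31948411 where the region starts at 31948395. That at Supt7l and Slc4a1ap met only the high-coordinate part of the region, from 31527226 to 31527345. The highest −log10 q of all the overlapping peaks was 0.412, at B4galt7. At Cpsf1 neither replicate overlapped, and the nearest replicate 2 peak lay 95 bp away with a fold of 1.71. Thus 0 of the 6 sites overlapped Panx2 peaks of both replicates, 1 a peak of replicate 1 and 4 a peak of replicate 2, beside 13 (19.7%), 14 (21.2%) and 55 (83.3%) of the 66 regions. At a −log10 q of at least 2 there were 0 of the 6 sites in both replicates and 0 in replicate 2, beside 9.09% and 33.3% of the 66 regions. Only 41 of those 66 regions lay within 1000 bp of a gene end, so they are not a like set for the 6 sites. At that q, 0% of protein-coding genes had Panx2 peaks of both replicates at an end.

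At gene ends, 2 of the 10 genes, Slc4a1ap and Mrpl21, had Panx2 peaks of both replicates, which is close in share to the 20.1% of all protein-coding genes. At Slc4a1ap the peaks of both replicates lay at the end away from the Mgea5 site (folds of 1.78 and 1.84). Replicate 2 also had peaks at the site end of this gene, with folds of 1.60 and 1.85. At Mrpl21 the replicates had peaks at opposite ends, replicate 1 at the site end (1.89) and replicate 2 at the far end (1.62). In replicate 1 there were 3 of 10 (23.5% of protein-coding genes) and in replicate 2 there were 9 of 10 (82.1%), all but Ighmbp2. None of the 10 had a Panx2 peak of a −log10 q of at least 2 at an end, against 0.247% of protein-coding genes in replicate 2 and 0% in replicate 1. The highest Panx2 fold at an end was 2.99 in replicate 2, with a −log10 q of 1.14, at the far end of Rgl2 toward Pfdn6, a prefoldin gene, and away from the Mgea5 site.

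**Figure D4:**
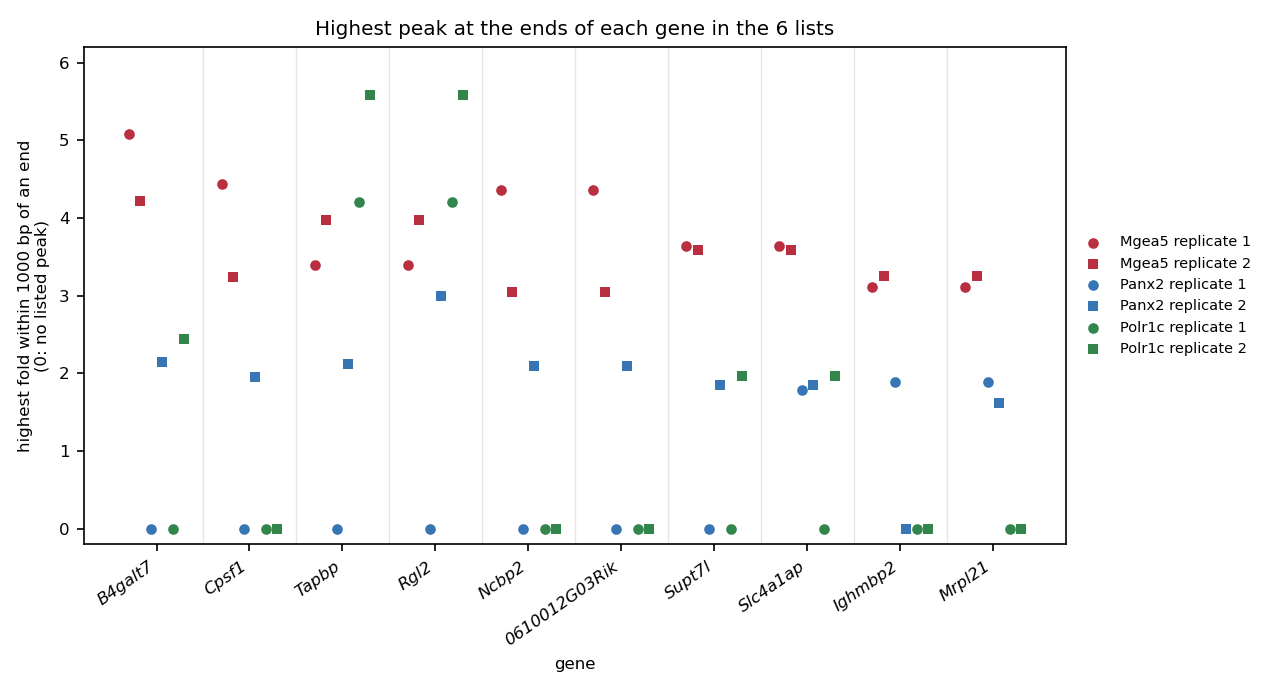
Highest fold within 1000 bp of an end of each gene in the lists of Mgea5 (red), Panx2 (blue) and Polr1c (green), replicate 1 as circles and replicate 2 as squares, with 0 where no peak was listed. Genes of a pair share most of their points. Polr1c exceeds Mgea5 at Tapbp and Rgl2, where the same peak serves both, and folds of different proteins are not on a common scale.

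Of the 10 genes, 9 have an end within 1000 bp of an end of another protein-coding gene, where 24.8% of protein-coding genes do. A peak at a shared end brings 2 genes into a list at once, so the sites are the better unit. Of the 6 sites, 4 lay within 1000 bp of ends of at least 2 genes. Among the 66 Mgea5 regions above, 41 (62.1%) lay within 1000 bp of a gene end, and 14 of these 41 (34.1%) had ends of at least 2 genes. The orientation was head to head at Supt7l and Slc4a1ap and at Ighmbp2 and Mrpl21 and tandem at Tapbp and Rgl2. For Ncbp2 the promoter table gave no strand.

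The promoters of 8 of the genes were not uniform in base composition. The windows of Supt7l and Slc4a1ap overlap, as do those of Ighmbp2 and Mrpl21, so the 8 are not separate stretches. That of Tapbp lies away from its Mgea5 site. G+C content ranged from 48.3% at B4galt7 to 69% at 0610012G03Rik, with a median of 58.2%, beside a median of 56.3% over 21263 promoters of protein-coding genes. The number of CpG over that expected from the base content ranged from 0.460 at B4galt7 to 1.18 at 0610012G03Rik, with a median of 0.577, beside 0.567 over all promoters. For the promoters of the other genes called at a −log10 q of at least 2 (41 promoters of 37 genes), the medians were 62% and 0.879. B4galt7, with the highest Mgea5 fold, had the lowest G+C content and CpG ratio of the 8.

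Short motifs of promoter-binding factors were searched on both strands. The ETS core CCGGAAG was in 3 of the 8 promoters, those of 0610012G03Rik, Ighmbp2 and Mrpl21, and in 11.6% of all promoters. Ighmbp2 and Mrpl21 share 1 match, at 3283049 to 3283055 inside the site, before the start of Ighmbp2 and just after that of Mrpl21. It was also in 13 of the 41 promoters of the other strong genes (31.7%). GGGCGG, the Sp1 box, was in 4 of 8, those of 0610012G03Rik, Tapbp, Rgl2 and Ighmbp2 (46.2% of all promoters), and in 22 of the 41 promoters of the other strong genes (53.7%). The CCAAT box was in 2 of 8, those of Supt7l and Tapbp (38.2% of all), and in 11 of the 41 (26.8%). The promoter of Tapbp lies at its start, away from the Mgea5 site, and so do its matches to both boxes. The other motifs searched had no match in the 8 windows. ACTACANNT, the first letters of the motif of ZNF143 and THAP11, was in 4.65% of all promoters. The NRF1 motif GCGCATGCG was in 2.35% of all promoters. The E-box CACGTG was in 7.84%. The cyclic AMP response element, TGACGTCA, was in 2.23% of all promoters. The YY1 motif AAGATGGCG was in 1.83%. The B box of tRNA genes, GGTTCGA, was in 1.03% of all promoters. The TATA box, TATAAA, was in 12.6%. These are matches of letters and were not tested as binding sites.

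Partner genes of the same complexes and pathways were grouped in 8 lists. In 7 of them, 0 of the 84 partner genes had a Mgea5 peak of a −log10 q of at least 2 at an end in both replicates, beside 0.251% of protein-coding genes. At that low share a count of 0 says nothing particular about these partners. The 7 were the lists of proteoglycan linker synthesis (B4galt7, 11 genes measured), cleavage and polyadenylation (Cpsf1, 18), MHC class I peptide loading (Tapbp, 11), Ral exchange factors and partners (Rgl2, 10), nuclear cap binding and RNA export (Ncbp2, 11), SAGA (Supt7l, 19) and UPF1-like helicases (Ighmbp2, 11). By mean fold, the highest among their other genes were 2.20 and 1.96 at the SAGA gene Taf9, 1.91 and 2.34 at the GTPase gene Rala, 2.32 and 1.89 at Ralgapb, which encodes a subunit of the complex that inactivates Ral, 1.82 and 2.15 at the cleavage factor gene Cstf2, and 2.19 and 1.83 at the helicase gene Helz, in replicates 1 and 2. Median mean folds of the 8 lists, with genes lacking a peak at 0, were 1.69 to 1.83, beside 1.69 over all protein-coding genes.

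The last list held genes of the mitochondrial large ribosomal subunit. Of its 48 genes other than Mrpl21, 2 (4.17%) were called, Mrpl1 (folds of 3.02 and 2.96) and Mrpl53 (2.65 and 2.74), beside 0.251% of protein-coding genes, and the difference was not tested. Mrpl3 had folds of 3.15 and 2.71 but a −log10 q of 1.67 in replicate 2. One gene of this list, Mrpl58, had Polr1c peaks of a −log10 q of at least 2 in both replicates (folds of 6.24 and 3.14), and its Mgea5 folds were 2.24 and 1.70.

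Replicates 1 and 2 of Mgea5 listed 536877 and 521566 peaks. Panx2 had 145405 in replicate 1 but 478662 in replicate 2, while Polr1c had 826 in replicate 1 but 35927 in replicate 2, so a gene was more likely to have a listed Panx2 or Polr1c peak in replicate 2. Peak names carried one run directory for the first replicates of Panx2 and Polr1c and another for the remaining lists, so for these proteins the replicate and the calling run cannot be told apart.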

How the data were processed

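ChIP-seq of Mgea5, Panx2 and Polr1c was given as 1 peak list per replicate. Reads were processed with Trim Galore, Bowtie2 2.3.5 and MACS3 3.0.0a5 on mm10, per the submitters' processing notes. Which control, cut-offs and filters MACS3 was run with is not given in the sources used here. Deposited columns are fold enrichment (a ratio), −log10 p, −log10 q and a display score, which was not used. These values describe and rank peaks within a list, and no interval can be given without depth.

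Peaks on 21 main chromosomes were joined to RefSeq genes (GRCm38.p6) by overlap of at least 1 bp with windows of 1000 bp around both gene ends, or with the gene and 5 kb on either side (Python 3.11.15, pandas 2.3.3). The overlap code was tested on simulated data. No statistical test was run, since the genes were chosen by their values. The genes, gene lists and motifs were chosen with earlier results of these data known. Named genes are the 10 genes, neighbours within 5 kb, genes just above and below the lowest member, and the top genes of each list. Alternatives were stricter q, other windows, a larger overlap and each replicate left out.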

Additional observations from a re-analysis of the deposited data

How the results depend on the processing

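The 10 genes kept a Mgea5 peak at an end in both replicates under a −log10 q of at least 2, under windows of 500 and 2500 bp and in either replicate alone, and 8 did at a −log10 q of at least 5. The number of sites covering an annotated start was 5 under each alternative tried, which follows in part from taking sites at gene ends. The counts for the other proteins depended on the settings. The number of genes with Polr1c peaks at an end, 2, was 0 at a −log10 q of at least 2 and 0 at 5. This was because the replicate 1 peak at the site of Tapbp and Rgl2 did not reach either cut-off. With a replicate left out the number ranged from 2 to 5. The number of sites overlapping Polr1c, 1, was 0 at both cut-offs on q and ranged from 1 to 2 with a replicate left out. For Panx2, 2 genes had peaks at an end, against 0 at both cut-offs on q and 0 with windows of 500 bp. With a replicate left out the count was 3 to 9. In the gene body and 5 kb flanks 6 of the 10 had Panx2 peaks of both replicates, where 69.5% of protein-coding genes did. Sites overlapping Panx2 numbered 0, and 1 to 4 with a replicate left out. No paired analysis was possible because the results come from no test and replicate numbers of different proteins do not pair peaks. Depth, the input libraries and cut-offs on the peaks limit what the absence of a listed peak shows.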
